A study of Mus musculus with 18 samples.

Results

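The comparison set C2C12 cells detached with a cold-active protease against C2C12 cells held in trypsin for 30 s. It took 6 of the 18 libraries of the series, chosen by their labels: 3 libraries of cells shaken in 200 µL of the cold protease for 5 min at 4 °C, and 3 libraries of cells left for 30 s at 37 °C in the same volume of trypsin at 0.25%. C2C12 is an established line of mouse myoblasts, the precursor cells of skeletal muscle, and the medium of all groups held 20% fetal bovine serum. Cells were washed with PBS before either enzyme. Expression was measured by BRB-seq, which reads barcoded cDNA mainly from the poly(A) ends of mRNAs. Enzyme, temperature, time and shaking differed together between the groups, so their parts in a difference cannot be told apart. Libraries of 3 further groups are used below for their levels and for tests in other samples. Control cells were scraped in lysis buffer, low trypsin cells had the 0.25% trypsin taken off at once and then 3 min at 37 °C, and 3 min trypsin cells stayed in it for 3 min at 37 °C. Each group held 3 libraries, numbered by lot. The sources used here do not say what a lot is, so the p-values speak of the spread among these libraries alone, and that spread may be technical.

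Trypsin is a serine protease that cuts cell surface and matrix proteins after lysine and arginine, and it can also activate protease-sensitive receptors. Cells that lose their hold on the matrix change actin tension, and the factors Srf and YAP with its DNA-binding partner TEAD carry such changes to the nucleus. Genes such as Ccn1, Ccn2 and Ankrd1 are standard readouts of YAP, and immediate early genes are transcribed within minutes of a stimulus. Proteases that work near the freezing point are used to free cells while transcription is slowed by the cold.

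Total counts were 1775288 to 2480690 with the cold-active protease and 1842214 to 2285307 after 30 s of trypsin, so that a floor of 3 counts stood for 1.21 to 1.69 CPM, the counts scaled to library size. Of 13 listed myoblast markers 11 were tested, of which 10 were not called different. Myod1 held 61.0 to 65.4 CPM with the cold-active protease and 59.9 to 65.2 after 30 s, and Des 884 to 971 and 846 to 923. Others of the list were low. Fgfr4, at 0.412 CPM or less, and Msc, at 2.68 CPM or less, were not tested, and Musk was at 3.1 to 6.4 CPM. Among markers of other cell types, Ptprc of blood cells was 0 in all 6 libraries and Cdh5 of endothelium did not exceed 0.434 CPM. Others were well above the floor. The epithelial keratin Krt14 was at 196 to 227 CPM with the cold-active protease and 205 to 242 CPM after 30 s, the neuronal tubulin Tubb3 at 29.2 to 32.2 and 35.4 to 40.4 CPM, the lipase Lpl at 19.5 to 30.9 and 17.4 to 26.2 CPM, Pparg at 13.8 to 22.6 and 19.8 to 26.6 CPM, and Cd14 at 9.76 to 15.9 and 16.6 to 17.9 CPM. None of these 5 was called. On the first principal component of log2 CPM, which held 13.66% of the variance, the cold-active protease libraries lay between -9.07 and -11.68 and the control libraries between -7.59 and -12.22, away from the 30 s libraries at 11.16 to 13.91. On the second, with 10.01% of the variance, the cold-active protease libraries (-0.44 to -0.091) lay near the 30 s libraries (0.33 to 1.97) and away from the control libraries (7.82 to 12.72).

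With the cold-active protease, 23 of 35 small subunit and 27 of 48 large subunit ribosomal protein genes, and 21 of 38 complex I and 21 of 42 other nuclear respiratory chain genes, were higher than after 30 s in trypsin. Ccn1, Srf, the urokinase gene Plau and its receptor Plaur, Tagln and 8 ribosomal protein genes, such as Rps29, were lower. Of 10075 tested genes, 594 were called different at an edgeR adjusted p under 0.05, which is 5.90% of the genes tested. In the direction of the cold-active protease 332 were higher (3.30%) and 262 were lower (2.60%). The median size of a called log2 change was 0.51 among the higher genes and 0.60 among the lower, and 17 of the higher and 67 of the lower genes exceeded 2-fold. Of these over 2-fold, 8 and 27 were protein-coding. The 3 and 3 libraries did not overlap in 323 of the 332 higher and 254 of the 262 lower genes. Over all 10075 tested genes 2100 did not overlap, so a lack of overlap is usual for a called gene. With each of the 6 libraries left out in turn, 210 of the 332 higher genes and 126 of the 262 lower genes stayed called every time.

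**Figure D1:**
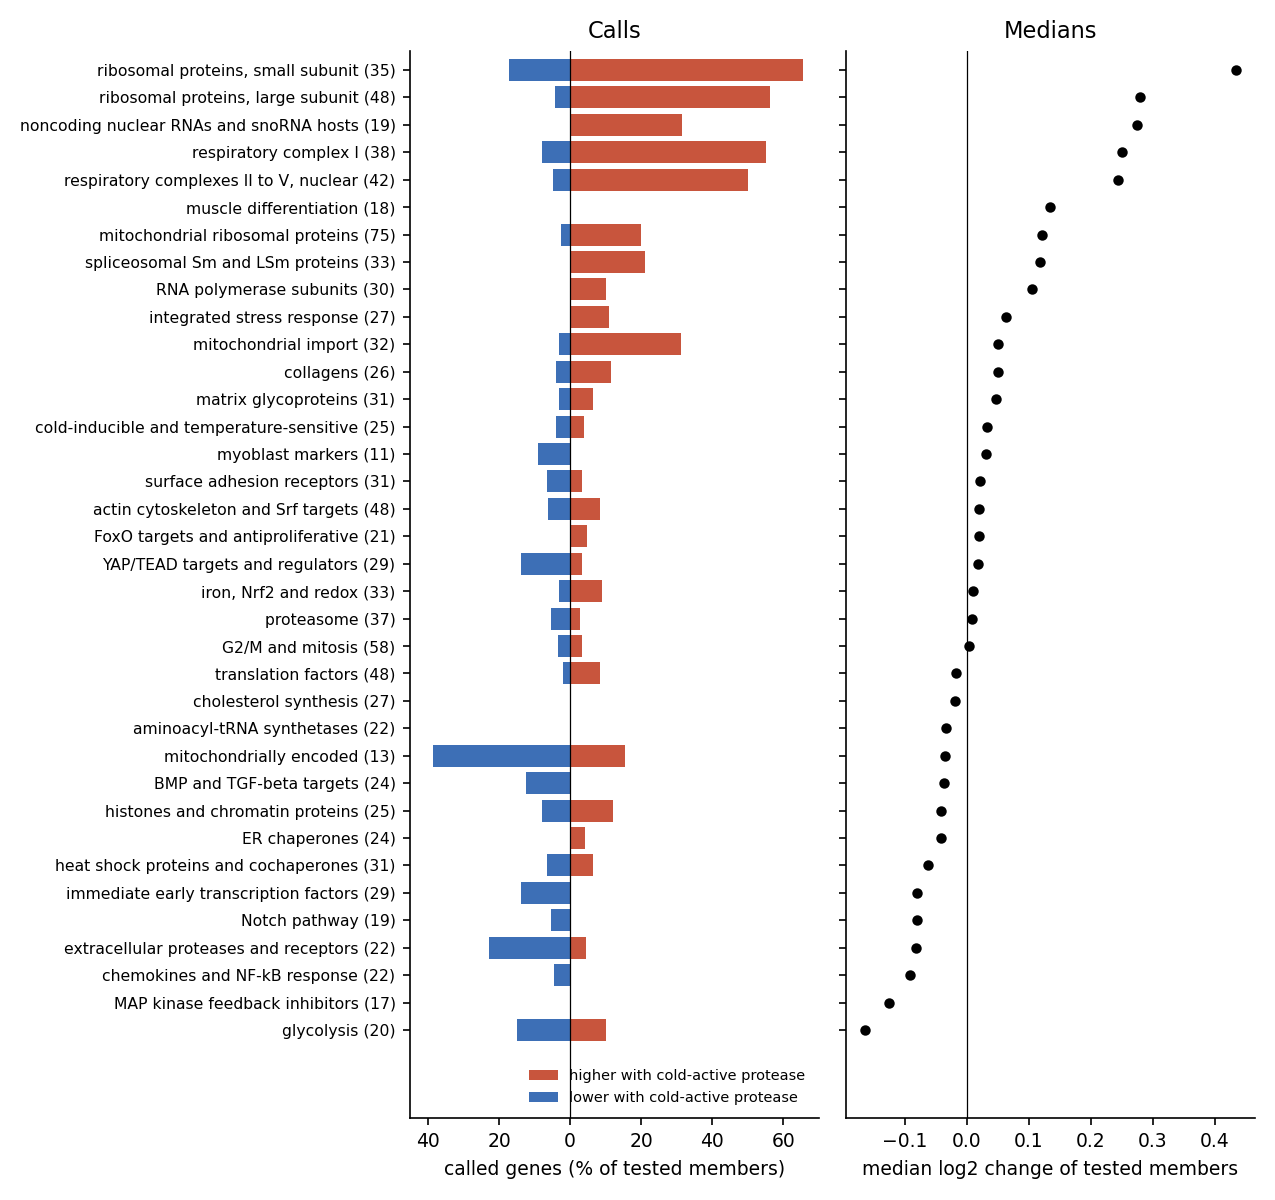
Share of tested members called higher (right, red) or lower (left, blue) with the cold-active protease than after 30 s of trypsin, for the 36 gene lists with at least 10 tested members (numbers in brackets), beside each list's median log2 change. Ribosomal protein and respiratory chain lists have 50.0% to 65.7% of members higher, and the mitochondrially encoded list has the largest share lower.

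The 15 largest rises of the naming rule ran from 0.83 to 1.35 on the log2 scale. They included Mir6236, mt-Rnr1, Mfsd4a, Naa38, Polr2j, Ifitm1, H1f5, Mrps21, Sh3bgrl3, Snrpd2, Rpl28, Tmsb10, Rpl26, Rps18 and Cdk12. The rule takes only called genes whose 3 and 3 libraries do not overlap. For its 15 rises and 15 falls, a lack of overlap given here or below was set by that choice and is no further support. Naa38, an auxiliary subunit of an N-terminal acetyltransferase, held 25.7, 22.6 and 36.7 CPM with the cold-active protease and 14.8, 12.8 and 10.2 CPM after 30 s. All 3 values with the cold-active protease were above all 3 after 30 s, the log2 change being 1.12 ± 0.21 (SE; edgeR adjusted p = 7.91e-05). Snrpd2, a core Sm protein of the spliceosome, held 90.1, 105 and 92.4 CPM against 49.5, 52.8 and 51.4 CPM (log2 0.91 ± 0.12, edgeR adjusted p = 3.79e-08). Control libraries had 80.6 to 97.6 CPM of Snrpd2, a range that takes in the cold-active protease values of replicates 1 and 3.

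Several of these rises lost their call without single libraries or in other fits. The mitochondrial small rRNA mt-Rnr1 was at 4168, 6583 and 3102 CPM against 2567, 1886 and 1528 CPM, and its edgeR adjusted p of 0.00431 became 0.132 without cold-active protease replicate 2 and 0.402 with DESeq2. Polr2j, a subunit of RNA polymerase II, lost its call without cold-active protease replicate 3 (0.165) and without 30 s replicate 2 (0.08). The mitoribosomal Mrps21 lost it without 30 s replicate 1 (0.161) or cold-active protease replicate 3 (0.0614), the linker histone H1f5 without cold-active protease replicate 2 (0.0783) or 30 s replicate 2 (0.0619), and the kinase Cdk12 without 30 s replicate 1 (0.0614). With a trend on mRNA length removed, Polr2j, H1f5 and Mrps21 were not called (0.0961, 0.0657 and 0.157). Mfsd4a lost it without cold-active protease replicate 2 (0.0677) or 3 (0.0759) or 30 s replicate 3 (0.105).

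The steepest rise of the rule was at the locus of Mir6236, which held 146, 156 and 144 CPM with the cold-active protease and 68.2, 52.8 and 52.5 CPM after 30 s. The groups did not overlap (log2 1.35 ± 0.16, edgeR adjusted p = 6.95e-09), and control libraries had 103 to 155 CPM. The counted feature is the whole locus of 123 bases at chr9:110281287-110281409 on the plus strand of GRCm38, not the mature miRNA. The mature sequence that RefSeq places within it (GRCm38.p6, chr9:110281353-110281371) is shown to identify the locus, with the seed in capitals.
mmu-miR-6236: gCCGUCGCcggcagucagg

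Ribosomal protein mRNAs, which code for the structural proteins of the cytosolic ribosome, were mostly higher with the cold-active protease. Of 35 small subunit genes 23 were higher and 6 lower, with a median log2 change of 0.43, and of 48 large subunit genes 27 were higher and 2 lower, with a median of 0.28, beside a median of -0.0021 over all tested genes. Rps14 on the small subunit held 3417, 3632 and 3645 CPM with the cold-active protease and 2047, 2049 and 1993 CPM after 30 s. The lowest cold-active protease library was well above the highest 30 s library, and the control libraries at 3470 to 3611 CPM lay among the former (log2 0.81 ± 0.04, edgeR adjusted p = 4.15e-20). Rpl32 on the large subunit held 950, 934 and 1004 CPM against 544, 570 and 526 CPM (log2 0.82 ± 0.05, edgeR adjusted p = 8.51e-18). Rps18 and Rplp1 rose by 0.83 and 0.80 on the log2 scale.

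Most ribosomal protein mRNAs end in 45-base stretches that another gene also holds, so their counts are uncertain. Among the members without such a copy, 5 of 7 small subunit genes and 7 of 12 large subunit genes were higher and 0 were lower, with medians of 0.36 and 0.36. Rpl28, which belongs to these, held 540, 540 and 528 CPM with the cold-active protease and 300, 276 and 305 CPM after 30 s, with no overlap (log2 0.87 ± 0.06, edgeR adjusted p = 4.36e-17). Of 48 translation factors, which act on the ribosome without being part of it, 4 were higher and 1 lower, with a median of -0.017. Tpt1, whose mRNA shares the ribosomal proteins' translational control, held 1043 ± 24.1 CPM (SD, n = 3) against 863 ± 6.11 CPM. The control mean of Tpt1 was higher than both, at 1252 CPM.

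The 8 ribosomal protein mRNAs on the other side were mostly the shortest ones. Rps29, a zinc finger protein of the small subunit with an mRNA of 390 nt, held 203, 174 and 198 CPM with the cold-active protease and 412, 416 and 414 CPM after 30 s. The 30 s libraries were alike and stood 2.17-fold above the others (log2 -1.11 ± 0.07, edgeR adjusted p = 3.04e-17), while control libraries had 185 to 216 CPM. Rps28 (437 nt) was at 180, 179 and 199 CPM against 312, 329 and 299 CPM, and Rpl38 (457 nt) at 153, 142 and 165 CPM against 261, 236 and 215 CPM. Their log2 changes were -0.76 and -0.64, and those of Rpl39, Rps27, Rps4x and Rps21 were -0.49, -0.39, -0.30 and -0.28. Rps27rt, a retrotransposed gene, was at 17.1 ± 1.42 CPM against 34.1 ± 8.66 CPM (SD, n = 3). Rps4x (975 nt) and Rpl39 (612 nt) were the longest of these mRNAs, and all 8 have copies elsewhere in the genome.

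**Figure D2:**
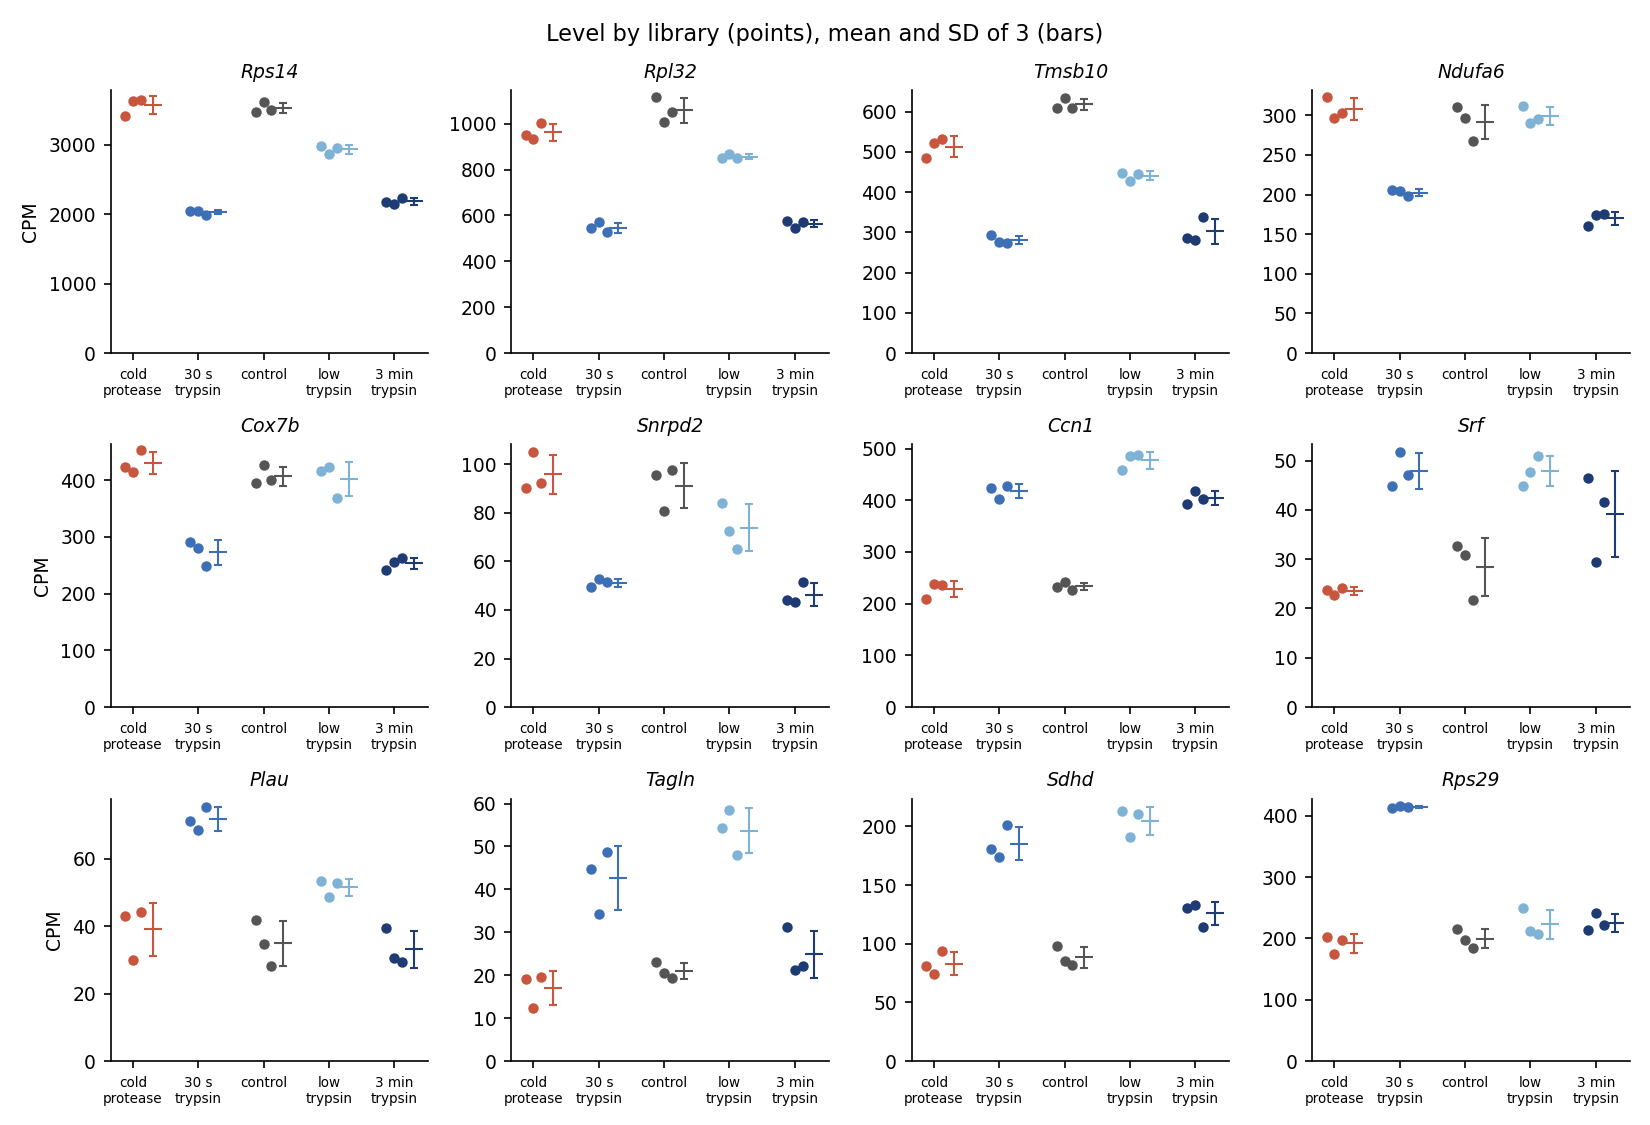
CPM of 12 genes in each library (points) with mean and SD of 3 libraries (bars), for the cold-active protease, 30 s trypsin, control, low trypsin and 3 min trypsin. Rps14, Rpl32, Tmsb10, Ndufa6, Cox7b and Snrpd2 are higher with the cold-active protease than after 30 s. Ccn1, Srf, Plau, Tagln, Sdhd and Rps29 are lower. Those 2 groups do not overlap in any of the 12. The same holds for 323 of 332 genes called higher, 254 of 262 called lower and 2100 of 10075 tested.

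Nuclear-encoded subunits of the respiratory chain, which pumps protons across the inner mitochondrial membrane and makes ATP, showed the same sense. Of 38 complex I genes 21 were higher and 3 lower (median log2 0.25), and of 42 genes of complexes II to V 21 were higher and 2 lower (median 0.24). Ndufa6 of complex I held 323, 297 and 303 CPM with the cold-active protease and 206, 204 and 198 CPM after 30 s (log2 0.60 ± 0.07, edgeR adjusted p = 1.17e-09). Cox7b of cytochrome c oxidase held 424, 415 and 452 CPM against 291, 280 and 248 CPM (log2 0.65 ± 0.07, edgeR adjusted p = 7.33e-11). Neither gene overlapped between the groups, and neither has a 3' copy. Uqcrh of complex III rose by 0.67 and Ndufb9 of complex I by 0.45 on the log2 scale.

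The exceptions were Sdhd, Ndufb1-ps, Ndufs3, Atp5k and Ndufa3, with log2 changes of -1.17, -0.79, -0.71, -0.70 and -0.46. Sdhd, a membrane anchor subunit of succinate dehydrogenase, was at 81.2, 74.5 and 93.5 CPM with the cold-active protease and 181, 174 and 201 CPM after 30 s (edgeR adjusted p = 1.87e-12). The groups were 2.24-fold apart without overlap, and control libraries had 81.5 to 98.2 CPM.

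Other mitochondrial and RNA-handling lists held fewer calls in the same direction. Of 75 mitochondrial ribosomal protein genes 15 were higher and 2 lower (median 0.12), and of 32 genes of mitochondrial import and the CHCHD family 10 were higher and 1 lower (median 0.051). Chchd1, a small mitochondrial ribosome protein, held 128, 164 and 166 CPM against 99.5, 89.2 and 81.9 CPM, without overlap (log2 0.75 ± 0.10, edgeR adjusted p = 8.44e-08). Of 33 genes listed as spliceosomal Sm and LSm proteins 7 were higher and 0 lower (median 0.12). The largest log2 change of that list, 1.12, matches that of Naa38, described above as an acetyltransferase subunit. The count may thus not be of spliceosomal genes alone. Snrpe and Snrpd1 of the Sm ring rose by 0.71 and 0.59, and Lsm6 by 0.48. Of 30 RNA polymerase subunits 3 were higher and 0 lower: Polr2f, at 303, 304 and 321 CPM against 222, 229 and 193 CPM, Polr2j, and Polr2a. Polr2a, the catalytic subunit, rose by 0.24 with an edgeR adjusted p of 0.0287, and its call ended without cold-active protease replicate 2 (0.125) or 3 (0.103) or 30 s replicate 2 (0.118) or 3 (0.0763). With the length trend removed, neither Polr2a (0.0657) nor Polr2j was called.

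Short mRNAs made up a larger share of the higher genes than of all genes tested. Of the 308 protein-coding genes called higher, 135 (43.8%) had a principal mRNA of 800 nt or less, with a median over the 308 of 884 nt, against 16 of 208 (7.69%) of those called lower and 298 of 9718 (3.07%) of all those tested. By length class, the median log2 change was 0.42 for 82 genes of over 400 and up to 600 nt (39 higher, 3 lower) and 0.35 for 206 genes of over 600 and up to 800 nt (96 higher, 7 lower). For the 9420 genes over 800 nt it was -0.0061 (173 higher, 192 lower). At 400 nt and below, 10 genes were tested, of which 0 were higher and 6 lower (median -0.33). Outside the ribosomal and mitochondrial lists the pattern was alike: 71 of 199 genes of 800 nt or less were higher and 3 lower (median 0.32), against 119 and 184 of 9238 longer ones (median -0.0084). As 2 examples chosen after their values were seen, Dbi, an acyl-CoA-binding protein with an mRNA of 569 nt, held 532, 517 and 514 CPM against 354, 300 and 331 CPM, and Sec61b, a subunit of the ER translocon (564 nt), 173, 176 and 171 CPM against 114, 110 and 101 CPM. Ribosomal protein genes over 800 nt had medians of 0.28 on the small and 0.28 on the large subunit, with 10 of 17 and 16 of 29 higher. The longer genes of complex I had a median of 0.16 (9 of 22 higher, 2 lower), and those of complexes II to V a median of -0.023 (7 of 22 higher, 1 lower). All lengths are those of the annotated principal isoform. Which isoform the cells held was not measured, so a gene placed above 800 nt may have a shorter mRNA here.

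**Figure D3:**
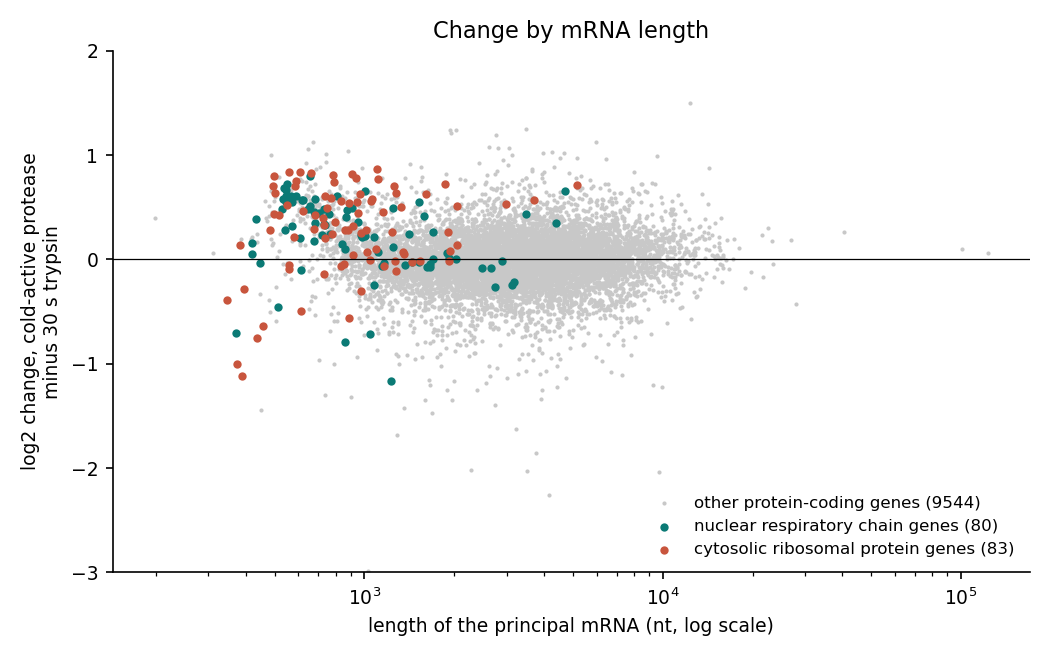
Log2 change (cold-active protease minus 30 s trypsin, vertical axis) of the tested nuclear protein-coding genes by length of the principal mRNA (nt, log scale), with cytosolic ribosomal protein genes in red and nuclear respiratory chain genes in green. Between 400 and 800 nt most points lie above 0, while Rps29 at 390 nt lies at -1.11.

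The share of short mRNAs also differed between whole libraries. Genes of 800 nt or less took 8.89% to 9.003% of the counts in the cold-active protease libraries, 6.76% to 7.19% after 30 s and 8.88% to 9.13% in control libraries. With a smooth trend of expression on mRNA length removed from each library, 521 genes were called, 235 higher and 286 lower, so that the share of higher calls went from 55.9% to 45.1%. The list medians became 0.29 and 0.14 for the small and large subunit, 0.13 for complex I and 0.068 for complexes II to V.

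Among genes that respond to tension and attachment, the YAP and TEAD list had 29 tested members, of which 4 were lower and 1 was higher with the cold-active protease (median 0.019). Ccn1, a secreted matricellular protein and a standard YAP target, held 210, 238 and 236 CPM with the cold-active protease and 424, 402 and 427 CPM after 30 s. The 30 s libraries stood 1.83-fold higher without overlap (log2 -0.87 ± 0.06, edgeR adjusted p = 1.42e-15), and control libraries had 226 to 241 CPM. F3, the receptor that starts coagulation, was at 41.1, 27.6 and 25.2 CPM against 57.4, 58.9 and 53.5 CPM (log2 -0.85 ± 0.15, edgeR adjusted p = 3.27e-05). Ccn2 and Ankrd1 were lower by -0.48 ± 0.10 and -0.39 ± 0.06 on the log2 scale, and Gadd45b, a growth arrest and stress gene, was higher by 0.60 ± 0.14.

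Srf, the transcription factor of actin and immediate early genes, held 23.8, 22.6 and 24.1 CPM with the cold-active protease and 44.8, 51.8 and 47.1 CPM after 30 s. Every 30 s library was above every cold-active protease library (log2 -1.02 ± 0.18, edgeR adjusted p = 4.03e-05), and control libraries had 21.7 to 32.7 CPM. Of 48 actin cytoskeleton genes and Srf targets 3 were lower, Srf itself, Cnn3 and Tagln, and 4 were higher, Tmsb10, Tmsb4x, Myl6 and Cfl1 (median 0.020). Tagln, an actin-bundling protein and a textbook Srf target, held 19.1, 12.3 and 19.5 CPM against 44.8, 34.3 and 48.7 CPM (log2 -1.35 ± 0.19, edgeR adjusted p = 4.66e-07). The higher members bind actin monomers or myosin and have mRNAs of 665 to 768 nt except Cfl1. Tmsb10, a thymosin that holds actin monomers, was at 484, 521 and 533 CPM against 293, 277 and 274 CPM, without overlap. Control libraries had 609.5 to 634.5 CPM of Tmsb10, above both groups. Actb itself, at 35130, 34840 and 35980 CPM against 34930, 32870 and 34980 CPM, was not called (edgeR adjusted p = 0.712).

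The bases before the transcription start of Srf and Ankrd1 are shown because both genes were lower with the cold-active protease and both stretches hold the words of the factors named. They come from RefSeq (GRCm38.p6), 250 bases each: Srf at chr17:46556163-46556412 and Ankrd1 at chr19:36119845-36120094, both on the minus strand. The annotations differ here: GENCODE M21 ends Srf at 46556175 and Ankrd1 at 36120099, so that the whole Ankrd1 stretch lies inside that gene model and the bases before the RefSeq start are meant. Capitals mark CArG boxes, the element that Srf binds, in the first and GGAATG, the word that TEAD proteins read, in the second.
Srf: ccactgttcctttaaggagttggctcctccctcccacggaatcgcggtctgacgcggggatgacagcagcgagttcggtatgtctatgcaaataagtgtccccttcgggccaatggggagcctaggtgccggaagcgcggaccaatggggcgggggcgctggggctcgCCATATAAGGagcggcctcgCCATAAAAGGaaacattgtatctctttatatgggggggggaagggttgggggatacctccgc
Ankrd1: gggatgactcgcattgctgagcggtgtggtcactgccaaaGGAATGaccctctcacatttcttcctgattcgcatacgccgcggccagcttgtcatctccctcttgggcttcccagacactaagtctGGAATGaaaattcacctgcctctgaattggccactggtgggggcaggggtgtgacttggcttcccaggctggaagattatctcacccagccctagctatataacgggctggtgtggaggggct
Both strands were searched, and no match of one word overlapped a match of the other. Srf had 2 CArG boxes, which begin 82 and 62 bases before the start, and 0 matches of GGAATG. Ankrd1 had 2 matches of GGAATG, which begin 210 and 123 bases before it, and Ccn1 had 1. F3, Plaur, Klf6 and Ier3, also lower, and Junb, which was not called, had 0 of either word. Over all 32851 RefSeq promoter windows of this length, 482 (1.47%) held a CArG box and 4153 (12.6%) held GGAATG. A match is a description of the sequence and not a measured site.

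Immediate early transcription factors counted 4 lower and 0 higher of 29 tested (median -0.080). Beside Srf these were Hes1, Ier3 and Klf6. Hes1, a Notch target and repressor, held 65.8, 56.8 and 51.1 CPM with the cold-active protease and 78.6, 88.1 and 87.3 CPM after 30 s, without overlap (log2 -0.54 ± 0.12, edgeR adjusted p = 0.000818). The calls of Ier3 and Klf6, with edgeR adjusted p of 0.0357 and 0.0498, were less firm, and DESeq2 made neither (0.0867 and 0.0973). That of Ier3 ended without cold-active protease replicate 1 (0.0837) or 2 (0.273) or 30 s replicate 1 (0.119) or 3 (0.18), and that of Klf6 without each library but cold-active protease replicate 3 (0.0932 to 0.286). Egr1, the classic early growth response factor, was at 96.6, 105 and 75.2 CPM against 108, 104 and 99.1 CPM, Junb at 235, 239 and 235 CPM against 278, 253 and 215 CPM, and Dusp1 at 17.3, 20.2 and 20.1 CPM against 18.7, 24.1 and 10.2 CPM. These 3 overlapped between the groups and were not called (edgeR adjusted p = 0.581, 0.718 and 0.907). Of 17 MAP kinase feedback inhibitors, 0 were called in either direction by edgeR.

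Genes of proteolysis at the cell surface were lower with the cold-active protease in 5 of 22 cases and higher in 1 (median -0.081). Plau, the secreted protease urokinase, held 43.0, 30.1 and 44.2 CPM with the cold-active protease and 71.2, 68.7 and 75.5 CPM after 30 s. Its receptor Plaur held 43.9, 38.7 and 40.2 CPM against 71.7, 66.6 and 77.1 CPM. Both were without overlap, with log2 changes of -0.90 ± 0.15 and -0.81 ± 0.14 (edgeR adjusted p = 6.97e-06 and 1.75e-05). Adam9, a membrane protease, was lower by -0.65, and Plat, the tissue plasminogen activator, by -0.46, with F3 as the fifth. Timp1, a secreted metalloprotease inhibitor, was the higher one, at 980, 981 and 1022 CPM against 894, 856 and 833 CPM. The chemokine Ccl2, the 1 called gene of 22 chemokine and NF-kB response genes, was at 86.4, 83.6 and 91.8 CPM against 125, 114 and 133 CPM (log2 -0.51 ± 0.09, edgeR adjusted p = 5.12e-05).

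Matrix and adhesion lists had medians of 0.050, 0.047 and 0.022. Of 26 collagen genes and their enzymes 3 were higher (11.5%) and 1 lower (3.85%). Of 31 matrix glycoproteins 2 (6.45%) and 1 (3.23%) were, and of 31 surface adhesion receptors 1 (3.23%) and 2 (6.45%). Over all tested genes the shares were 3.30% and 2.60%. Among these calls, Col1a2, Col6a1, Bmp1, Lama5, Hspg2, Agrn, Cd82, Cd151 and Sgcb each ended when at least 1 of the 6 libraries was left out. Plod2, the lysyl hydroxylase of collagen crosslinks, was at 29.9, 32.5 and 29.9 CPM against 59.5, 50.7 and 53.0 CPM (log2 -0.82 ± 0.14, edgeR adjusted p = 1.37e-05). Myf5, a myogenic factor and the 1 called myoblast marker, was at 81.2, 84.4 and 76.3 CPM against 114, 107 and 125 CPM (log2 -0.51 ± 0.11, edgeR adjusted p = 0.00149).

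Lists for temperature and stress are given beside the shares over all tested genes, which were 3.30% higher and 2.60% lower. The shares were 4.0% and 4.0% for cold-inducible and temperature-sensitive genes, and 6.45% and 6.45% for heat shock proteins and cochaperones. For integrated stress response genes they were 11.1% and 0%, and for ER chaperones 4.17% and 0%. Of 25 cold-inducible and temperature-sensitive genes 1 was higher and 1 lower (median 0.033). Rbm3, an RNA-binding protein known for its induction in mild hypothermia, was the lower one, at 22.4, 16.9 and 18.9 CPM with the cold-active protease and 38.2, 39.96 and 41.2 CPM after 30 s. The groups did not overlap (log2 -1.04 ± 0.19, edgeR adjusted p = 9.36e-05), and control libraries had 18.6 to 34.4 CPM. Cirbp, its close relative, was at 48.1, 64.2 and 40.8 CPM against 46.9, 44.1 and 48.2 CPM and was not called (edgeR adjusted p = 0.721). Of 31 heat shock proteins and cochaperones 2 were higher and 2 lower (median -0.062). Hspe1, the mitochondrial cochaperonin, rose by 0.63 ± 0.08, and its mRNA of 774 nt has 5 copies. Hspa1b at 48.1, 41.6 and 53.4 CPM against 48.7, 68.1 and 57.8 CPM and Hspa8 at 159, 147 and 138 CPM against 126, 129 and 128 CPM were not called. Of 27 integrated stress response genes 3 were higher and 0 lower. Nupr1, a small stress-induced chromatin protein, was at 39.2, 42.4 and 41.9 CPM against 26.1, 24.1 and 25.7 CPM (log2 0.70 ± 0.15, edgeR adjusted p = 0.00126). The others, Slc7a5 and Eif4ebp1, were less firm. Slc7a5 lost its call without replicate 1 or 2 of either group (0.0596 to 0.196) and with DESeq2 (0.051). Eif4ebp1 lost it without replicate 2 of the cold-active protease (0.052) or of 30 s trypsin (0.0593). Of 24 ER chaperones 1 was higher and 0 lower. That gene, Sel1l, lost its call without each of the 6 libraries (0.0501 to 0.106) and with DESeq2 (0.0793). Among the temperature and heat shock calls, Snrnp70, the higher cold-inducible gene, was not called without any library but cold-active protease replicate 1 (0.0899 to 0.176). The lower Ptges3 was not called without any library but 30 s replicate 2 (0.0628 to 0.313), and the lower Hsf1 without any but replicate 3 of either group (0.101 to 0.192). The higher Hspb1 was not called without replicate 2 of the cold-active protease (0.0932) or of 30 s trypsin (0.0768).

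Nuclear noncoding RNAs and snoRNA host genes, whose spliced products are mostly noncoding, counted 6 higher and 0 lower of 19 (median 0.27). Snhg1 held 108, 101 and 93.0 CPM with the cold-active protease and 65.6, 61.0 and 75.5 CPM after 30 s, without overlap (log2 0.59 ± 0.11, edgeR adjusted p = 0.000209). Zfas1 rose by 0.40 and Gas5 by 0.42, and the call of Gas5 ended without cold-active protease replicate 3 (0.0674). With the length trend removed, 2 of the 19 were called higher, and Gas5 (0.316) and Zfas1 (0.239) were not.

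The 15 largest falls of the naming rule ran from -1.07 to -1.92 on the log2 scale. They were mt-Nd3, Cep44, Usp50, Crtc2, Ppp3cc, Tagln, Cbx3, Sdhd, Srd5a1, Rps29, Kirrel, Akap10, Dhx35, Nup98 and Arsa. Apart from mt-Nd3 and Rps29, these have principal mRNAs of 1231 to 7278 nt. Crtc2, a coactivator of CREB, was at 13.5, 16.1 and 21.8 CPM with the cold-active protease and 45.6, 41.5 and 46.6 CPM after 30 s (log2 -1.40 ± 0.18, edgeR adjusted p = 1.93e-08). Cbx3, a heterochromatin protein, was at 19.6, 25.5 and 28.1 CPM against 63.4, 62.5 and 46.6 CPM (log2 -1.25 ± 0.16, edgeR adjusted p = 4.5e-08). Nup98, a nuclear pore protein, was at 45.3, 44.9 and 58.5 CPM against 91.7, 92.7 and 128 CPM. All 3 were without overlap, as the naming rule required, and control means were 16.7, 23.6 and 57.5 CPM. The calls of 3 of the 15 ended without single libraries. They were Usp50 without cold-active protease replicate 3 (0.108) or 30 s replicate 3 (0.122), Dhx35 without cold-active protease replicate 1 (0.098) or 2 (0.12) or 30 s replicate 1 (0.336), and Srd5a1 without either of those cold-active protease replicates (0.098 and 0.243) or 30 s replicate 1 (0.111) or 3 (0.114). DESeq2 called neither Srd5a1 (0.054) nor Dhx35 (0.0737).

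The mitochondrial genome encodes core subunits of the respiratory chain and also rRNA. Its transcripts did not move with the nuclear subunits. Of 13 tested, 5 were lower and 2 higher with the cold-active protease (median -0.035). The lower ones were mt-Nd3, mt-Atp6, mt-Co2, mt-Nd4 and mt-Nd1, with log2 changes of -1.92, -0.93, -0.75, -0.23 and -0.22. mt-Nd3, a complex I subunit, held 16.8, 12.3 and 12.6 CPM with the cold-active protease and 58.2, 56.4 and 43.4 CPM after 30 s, without overlap (edgeR adjusted p = 5.46e-11). mt-Co1, the catalytic subunit of cytochrome c oxidase, was higher by 0.30 ± 0.06 (edgeR adjusted p = 0.00103). The other higher transcript was mt-Rnr1, an rRNA and not a subunit mRNA, and DESeq2 did not call it (adjusted p = 0.402). All genes of the mitochondrial chromosome together took 5.96% to 6.79% of the counts with the cold-active protease and 5.90% to 6.21% after 30 s. That total includes mitochondrial rRNA, so it does not give the level of the mitochondrial mRNAs. Genes of rRNA type, mitochondrial or nuclear, took 2.92% to 3.87% with the cold-active protease and 2.56% to 2.77% after 30 s.

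Nuclear pseudogenes that copy mitochondrial genes showed larger differences. They were picked out after their values were seen. Gm13340, a copy of mt-Co1 at chr2:22588103-22589647 on the minus strand of GRCm38, held 521, 473 and 506 CPM with the cold-active protease and 37.4, 46.1 and 54.1 CPM after 30 s. It stood 10.9-fold higher without overlap (log2 3.46 ± 0.12, edgeR adjusted p = 1.89e-28), and control libraries had 5.86 to 16.7 CPM. Among all 18 libraries those of 30 min trypsin were the next highest, at 201 to 213 CPM with a mean of 205 CPM. Over its 1545 bases Gm13340 differs from mt-Co1 (chrM:5328-6872) at 37 positions, an identity of 97.6%. Of 1501 windows of 45 bases along it, the length of the second read, 1042 are not found in mt-Co1. The last 3 differences are marked by capitals in the stretches printed here, over positions 1450 to 1515 counted from 1 at the 5′ end of either transcript (chrM:6777-6842, plus strand, and chr2:22588133-22588198, minus strand). They are G1458A, T1464C and T1506C, with the base of mt-Co1 first.
mt-Co1: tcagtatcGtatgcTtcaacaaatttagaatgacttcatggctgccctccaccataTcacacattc
Gm13340: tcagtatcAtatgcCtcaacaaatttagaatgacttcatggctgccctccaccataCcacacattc
A second copy of mt-Co1, Gm29216, was lower with the cold-active protease, at 36.4, 43.7 and 36.2 CPM against 86.9, 85.1 and 172 CPM. Counts of mt-Co1 and its 3 copies summed to 1070 ± 42.5 CPM with the cold-active protease and 595 ± 79.1 CPM after 30 s (SD, n = 3).

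Of the 5 copies compared with their source base by base, Gm28437 and Gm28661 were identical to it. Gm28437 has the 783 bases of mt-Co3 without a difference, and was at 303, 259 and 282 CPM with the cold-active protease and 738, 731 and 873 CPM after 30 s (log2 -1.47 ± 0.14, edgeR adjusted p = 5.54e-12), while mt-Co3 itself was not called (log2 -0.15, edgeR adjusted p = 0.246). Gm28661 has the 681 bases of mt-Co2 without a difference. The 3 loci of that family, mt-Co2, Gm13341 and Gm28661, were lower together, with log2 changes of -0.75, -1.30 and -1.94. Gm28661 was at 30.8, 24.3 and 34.4 CPM against 67.3, 70.7 and 208 CPM, and 3.87-fold lower with all libraries or 2.31-fold without 30 s replicate 3. Whether a read with several matches was dropped, shared or placed at 1 locus is not given in the sources used here. Counts of identical loci cannot be told apart.

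**Figure D4:**
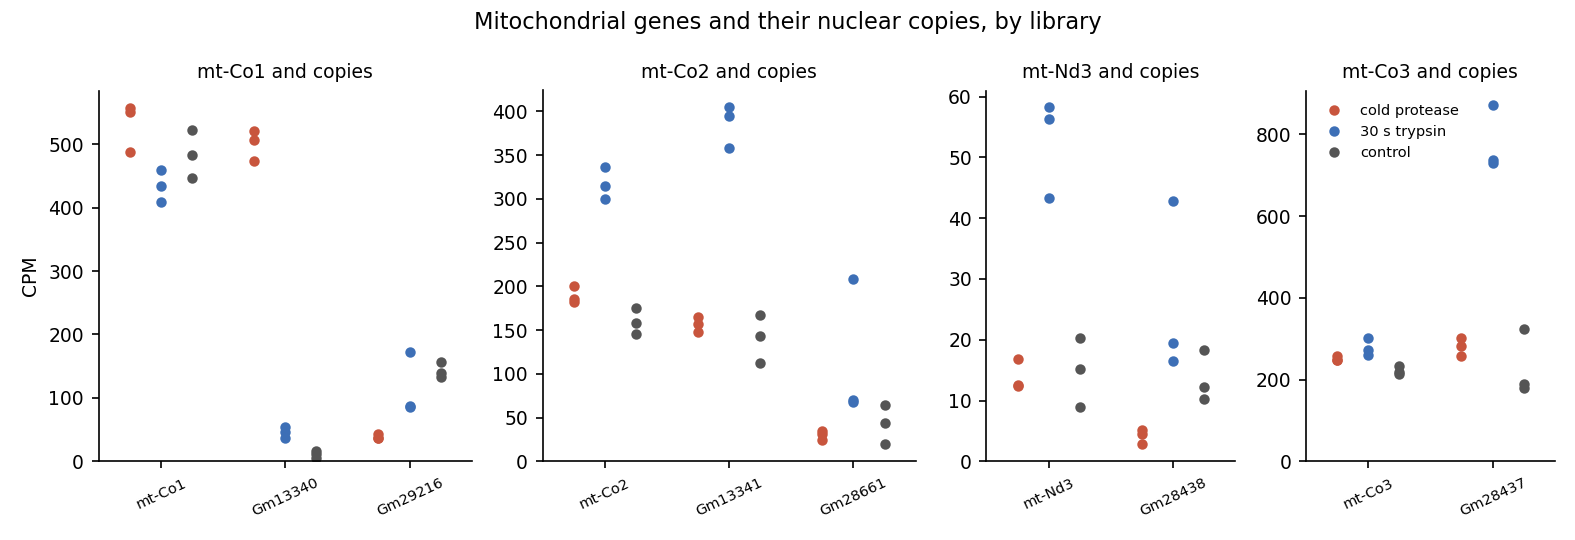
CPM of mt-Co1, mt-Co2, mt-Nd3 and mt-Co3 and of their nuclear copies in each cold-active protease (red), 30 s trypsin (blue) and control (grey) library. Gm13340 is at 473 to 521 CPM with the cold-active protease and at 54.1 CPM or less in the other 2 groups, while the other copies are lower with the cold-active protease than after 30 s.

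Pseudogenes as a class were mostly lower. Of 159 tested 48 (30.2%) were lower and 9 (5.66%) higher with the cold-active protease, with a median log2 change of -0.48. They took 0.645% to 0.668% of the counts in the cold-active protease libraries, 0.782% to 0.861% after 30 s and 0.554% to 0.651% in control libraries. Many are copies of ribosomal protein genes. Rpl10a-ps1 was at 128, 124 and 127 CPM against 225, 218 and 194 CPM (log2 -0.75). Rpl10a-ps2 was at 0.467, 0.412 and 1.15 CPM, below the floor of 3 counts in each library, against 23.9, 19.5 and 20.9 CPM. Both were chosen after their values were seen, and both have copies among other genes.

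The same genes were then read in libraries that the comparison did not use, from 2 contrasts of a trypsin treatment with control cells. In the contrast of 3 min trypsin with control, 399 of 10075 genes were called (3.96%), 102 higher after trypsin (1.01%) and 297 lower (2.95%). Of the 332 genes higher with the cold-active protease, 215 were called lower after 3 min, which is 64.8% of the first list and 72.4% of the second. In the other direction, 38 of the 262 lower genes were called higher after 3 min (14.5% and 37.3%). Only 6 and 3 genes were called in the opposite sense. The median log2 change after 3 min was -0.42 over the 332 and 0.19 over the 262, beside 0.0091 over all tested genes.

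In the contrast of low trypsin with control, 523 genes were called (5.19%), 332 higher (3.30%) and 191 lower (1.90%). Here the larger overlap lay on the other side. Of the 262 genes lower with the cold-active protease, 144 were called higher with low trypsin, which is 55.0% of the first list and 43.4% of the second. Of the 332 higher genes, 57 were called lower (17.2% and 29.8%), and 11 and 1 genes were called in the opposite sense. The median log2 change with low trypsin was 0.47 over the 262 and -0.059 over the 332, beside -0.0029 over all tested genes. These 2 contrasts share the control libraries with each other, and neither shares a library with the comparison of the cold-active protease and 30 s trypsin.

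**Figure D5:**
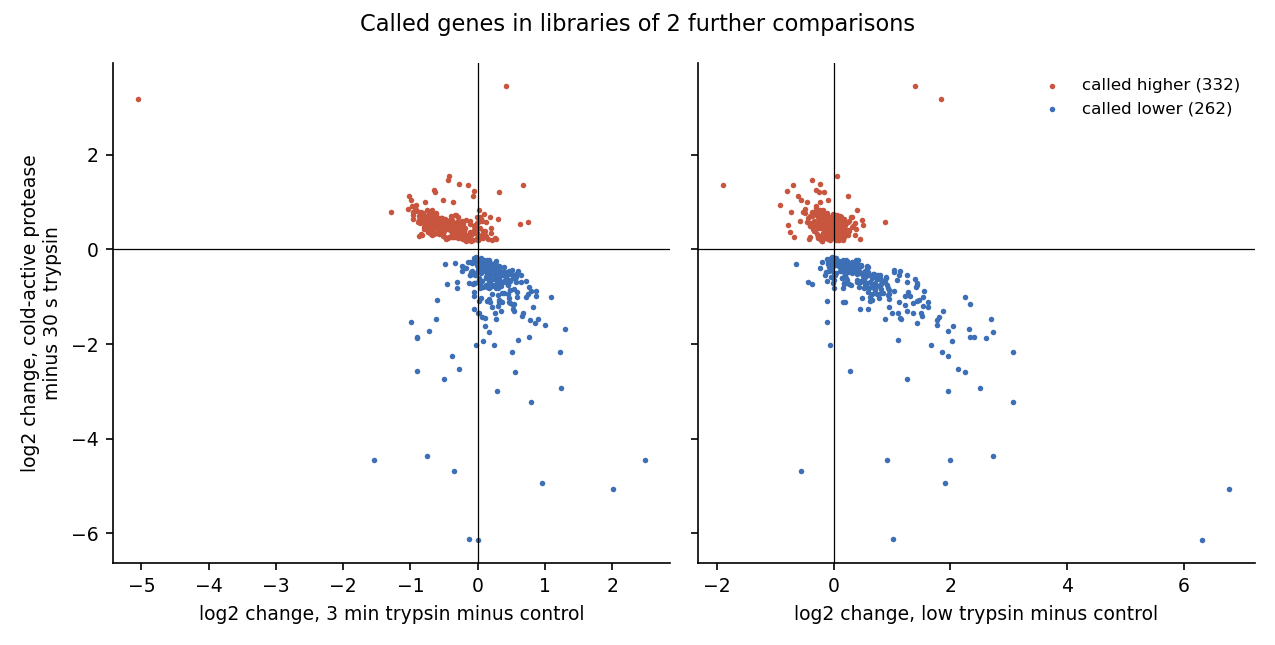
Log2 change of the 594 called genes (cold-active protease minus 30 s trypsin, vertical axes) by their log2 change for 3 min trypsin minus control (left) and low trypsin minus control (right), in libraries not used on the vertical axis. Genes higher with the cold-active protease (red) lie mostly left of 0 at 3 min, where 299 of 332 were negative. With low trypsin 211 of the 332 were. Genes lower with it (blue) lie mostly right of 0 with low trypsin, where 234 of 262 were positive, and 213 were at 3 min. Over all tested genes, 47.9% were negative and 52.1% positive at 3 min, and 50.6% and 49.4% with low trypsin.

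The gene groups divided between these contrasts. Respiratory complex I had 27 of 38 members lower after 3 min (median -0.47) and 3 of 38 lower with low trypsin (median -0.0090), and complexes II to V had 25 and 8 of 42. Ribosomal proteins of the small subunit had 25 and 16 of 35 lower, and those of the large subunit 29 and 21 of 48. Ccn1 was higher in both, by 0.79 after 3 min and 1.03 with low trypsin (edgeR adjusted p = 6.21e-14 and 4.26e-18), and Hes1 by 0.65 and 0.53. Sdhd was higher in both, by 0.52 and 1.22. Plaur, Tagln and Crtc2 were higher with low trypsin, by 0.93, 1.36 and 1.52 (edgeR adjusted p = 1.23e-06, 2.05e-07 and 6.32e-09), while their changes of 0.17, 0.26 and 0.66 after 3 min did not pass the threshold. Plau was higher with low trypsin by 0.59 and had a log2 value of -0.048 after 3 min. Rps29 was called in neither, with log2 values of 0.18 and 0.17. Whether the 2 trypsin treatments differ for these genes was not tested.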

How the data were processed

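BRB-seq libraries of 18 C2C12 samples in 6 groups of 3 were used, grouped by their labels. Per the submitters' processing notes, reads were handled with HISAT2 2.1.0 (build GRCm38), Trim Galore 0.6.6, featureCounts 2.0.1, UMI-tools 1.0.1, cutadapt 2.6 and DESeq2 1.28.1. Sources used here do not give their settings. The deposited table holds raw counts, as whole numbers, of 25957 genes. Genes passing filterByExpr were fitted in edgeR 4.0.16 (R 4.3.3) after TMM scaling, in a single fit of the 18 libraries, by a quasi-likelihood F test with Benjamini-Hochberg adjustment over 10075 genes. CPM are TMM-scaled. An exact permutation test of 3 against 3 cannot go below 0.1, so calls rest on the model. On simulated data 89.6% of 67 genes changed by 1 log2 unit were recovered, and 12 of all 177 calls were false. The changed genes were drawn from those above a minimum mean count, so recovery of the lowest genes was not tested. Floors cover counting error only.

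Positions, mRNA lengths (principal isoform, the longest where several tie) and copies (a 45-base match of the last 400 bases in another gene) came from GENCODE M21 on GRCm38, which matched all 10075 genes, and promoter and miRNA sequences from RefSeq. Named genes were called, non-overlapping genes with at least 10 CPM in the higher group, the 15 largest rises and 15 largest falls without pseudogenes or predicted genes, plus up to 4 called members with the smallest p of each of 41 lists and 12 set genes. The members and lists were chosen with earlier results of these data known. Alternatives were other scalings, filters, DESeq2 1.42.0, fewer groups or gene classes, length corrections, a lot block and leaving out each library.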

Additional observations from a re-analysis of the deposited data

How the results depend on the processing

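Calls numbered 489 with DESeq2 and between 553 and 598 under DESeq2 size factors, upper-quartile scaling, no filter, a filter of 10 CPM and the replicate block (591). Fitting only the 2 groups compared gave 650, 367 higher and 283 lower. Leaving out mRNAs of 800 nt or less gave 347 calls, 170 of them higher, and 128 and 121 genes called in the same sense by low trypsin and by 3 min trypsin, against 201 and 253 in the full set. Genes without a copy, a setting chosen after seeing the data, gave 386 calls, 215 higher and 171 lower, with 111 and 149 in the same sense. These 2 settings test fewer genes. Leaving out 1 library gave 451 to 508 calls, 272 to 303 higher and 179 to 224 lower, and 164 to 190 and 213 to 240 in the same sense. No direction reversed among the named calls that a setting gave a value for, which were all 122 except with short mRNAs left out (84), coding genes alone (116) and genes without a copy (91). Of the 122, 81 kept their call without each library in turn, 13 lost it with DESeq2 and 13 with the length trend removed. Between the 2 groups compared, deviations of same-numbered lots had correlations of -0.000294 to 0.00487, and those of unlike-numbered lots -0.0251 to 0.0244. Counting noise enters every deviation, so such values cannot show that lots share nothing. What a lot stands for stays unknown, and lots were not used as pairs. The self-test recovered 57.6% of genes changed by 0.5 log2 units, so smaller changes may be missed at this depth.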

Other observations

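A few redox genes were also higher with the cold-active protease. Of 33 iron, Nrf2 and redox genes 3 were higher and 1 lower than after 30 s of trypsin (median log2 0.010). Txn1, the cytosolic thioredoxin, held 1897, 1884 and 1882 CPM against 1369, 1370 and 1242 CPM, without overlap (log2 0.51 ± 0.05, edgeR adjusted p = 8.33e-13). Sod1, which dismutates superoxide, and Gpx4, which reduces lipid peroxides, rose by 0.42 and 0.51, and their mRNAs have 1 and 2 copies. Mean levels of Gpx4 were 98.3 CPM with the cold-active protease, 69.0 CPM after 30 s and 139 CPM in control libraries. Prdx3, a mitochondrial peroxiredoxin, was lower by -0.36, and its call ended without cold-active protease replicate 2 (edgeR adjusted p = 0.0735).

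Glycolytic genes had the lowest median of the lists with at least 10 tested members, -0.16, with 3 of 20 lower and 2 higher. Tpi1, triose phosphate isomerase, held 591, 611 and 604 CPM with the cold-active protease and 747, 749 and 714 CPM after 30 s, without overlap (log2 -0.29 ± 0.05, edgeR adjusted p = 7e-05), and Aldoa was lower by -0.24. Among 58 G2/M genes 2 were lower and 2 higher. Hmgb2, a chromatin protein of dividing cells, was at 129, 137 and 144 CPM against 214, 213 and 215 CPM (log2 -0.65 ± 0.09, edgeR adjusted p = 7.92e-08). EdgeR called 0 of 27 cholesterol synthesis genes, 0 of 22 aminoacyl-tRNA synthetases and 0 of 18 muscle differentiation genes in either direction.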
